A study of Mus musculus with 6 samples.

Results

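The assembled long noncoding transcripts of the neonatal mouse cortex were 2096 rows of a gene table with 23016 rows. They were chosen by their measured levels, as the rows with an assembly identifier (XLOC_ and a number) whose normalised read count was at least 10 in at least 3 of the 6 libraries. The table held 3819 such assembled rows. The other 1723 did not reach that level, and 57 of those were at 0 in every library. The rule used levels only and not the difference between genotypes. Of the members, 1843 reached 10 in all 6 libraries, 13 reached it in each wild type library and in no Fezf2 KO library, and 3 the other way round. Among the members closest to the limit were linc-Slc22a3-AS and linc-Nbeal2, which like some others had 3 libraries at 10.3 or more. Just outside it were linc-Tmem20 and linc-Tusc1, with 3 libraries at 9.88 or more.

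The groups were 3 wild type (Fezf2+/+) and 3 Fezf2 KO (Fezf2-/-) mouse pups at postnatal day 0, from crosses between heterozygotes. Each library was made from total RNA of the cerebral cortex of 1 brain. Litter m1 gave 2 pups of each genotype (replicates 1 and 2) and litter m2 gave replicate 3 of each. Fezf2 is a zinc finger transcription factor needed for the subcerebral projection neurons of layer 5. The strain, the sex and the nature of the deleted allele are not given in the sources used here, and Fezf2 is missing from the whole animal in such a mutant, not only from cortical neurons.

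Long noncoding RNAs are transcripts, usually spliced and polyadenylated, that are not read into a protein. Many start within or beside a coding gene: an antisense transcript runs over the gene on the opposite strand, and a divergent transcript leaves a shared promoter in the other direction. Others lie alone between genes, and are often expressed at low levels and in few cell types. Here nearly every member was named after a gene, as linc- and the symbol of that gene, in 749 cases with the suffix AS, in 466 with BP, in 493 with no suffix and in 364 with a number; 24 members had another kind of name. The suffixes are not explained in the sources used here. The members carry no coordinates in the table, but 321 of them (15.3%) had the same 6 values as a row for a known gene, so that the same reads were listed under both names. Where such a known gene and the gene in the symbol could be placed in the GENCODE annotation of GRCm38, the 23 AS and BP members lay across the coding gene on the opposite strand or started head to head with it within 2000 bases. Of 42 placed members with no suffix or a number, 39 lay more than 5 kb from the gene they are named after.

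Of the 4 changed BP members, linc-Fzd10-BP and linc-Cbln1-BP could be placed through a row for a known gene, and sequences are printed for those. linc-Fzd10-BP had the same values as 5930412G12Rik, a noncoding gene on the minus strand that is separated by 150 bases from Fzd10 on the plus strand in GENCODE. Its transcript is represented by the first 200 of 2403 bases of the isoform 5930412G12Rik-201, in lower case throughout because no part is singled out.
5930412G12Rik-201: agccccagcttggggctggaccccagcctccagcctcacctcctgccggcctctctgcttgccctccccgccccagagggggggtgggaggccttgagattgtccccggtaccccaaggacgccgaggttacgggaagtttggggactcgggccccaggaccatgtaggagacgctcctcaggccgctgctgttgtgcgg
The row for linc-Cbln1-BP stayed within 0.076 on the log2 scale of the row for Gm2694, a noncoding gene, in every library. Gm2694 is on the plus strand and Cbln1 on the minus strand. Of 11 isoforms of Gm2694 in GENCODE, 1 overlaps Cbln1 and 10 start beyond it, the nearest after 202 bases. The 250 bases before the start that the RefSeq promoter table uses (GRCm38.p6, chr8:87472866-87473115, plus strand) are printed with CG dinucleotides in capitals. They begin 256 bases from Cbln1, and 4 of the isoforms start before them and 6 after them.
Gm2694 upstream window: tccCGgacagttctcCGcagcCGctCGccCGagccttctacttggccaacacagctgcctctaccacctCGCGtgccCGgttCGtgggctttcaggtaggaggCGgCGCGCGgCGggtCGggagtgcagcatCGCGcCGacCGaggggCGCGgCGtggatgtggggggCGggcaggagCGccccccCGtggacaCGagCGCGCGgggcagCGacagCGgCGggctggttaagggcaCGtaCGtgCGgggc
The window held 35 CG dinucleotides. Over 32851 RefSeq windows of this length the median was 6, and the window stood at the 97.0 percentile. It held neither CCAAT nor TATAAA on either strand; of all windows, 33.8% held the first motif and 12.4% the second.

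The libraries held 44978380 to 52872577 reads in all rows, and assembled transcripts took 2.11 to 2.19% of them. Fezf2 itself was at 5452 ± 452 normalised reads (SD, n = 3) in wild type and 1633 ± 318 in Fezf2 KO cortex. Reads of the Fezf2 row in the mutants come from parts of the gene that were not identified here. Markers of cortical projection neurons were high in every library; the sum over 7 genes was 107712 to 115160 in wild type and 115979 to 132833 in Fezf2 KO. Fezf2 KO 1 held a choroid plexus sum of 9821 over 8 markers, against 79.9 to 150 in the other libraries, with Ttr at 8950. For markers of striatal neurons, the sum over 13 genes was 22408 to 26792 in wild type and 14591 to 20466 in Fezf2 KO. Only 1 of the 13 passed the test, Ppp1r1b. Without it the sums overlapped, at 16690 to 20077 in wild type and 12413 to 17248 in Fezf2 KO. Of those 12 genes, 6 were lower in Fezf2 KO without overlap. Xist was at 3782 in wild type 2 and at 0 to 2.81 in the other libraries. The Y-linked genes Kdm5d, Eif2s3y and Uty were at 0 in wild type 2, and Kdm5d was at 393 to 422 in the others. By these genes wild type 2 was female and the others male, so sex was not balanced between genotypes. Its part in the results was not tested. Separate animals make the replicates, and the p-values measure the spread between them.

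In Fezf2 KO cortex 12 of the 2096 assembled transcripts changed, 6 of them higher and 6 lower. The share, 0.573%, was below the 0.712% of all 17557 rows that passed the level rule (125 rows). By direction the background was 0.404% higher and 0.308% lower. These calls come from limma on log2(value + 1) over the whole table, at a Benjamini-Hochberg adjusted p under 0.05. At an unadjusted p under 0.05, 195 members (9.30%) differed, against 9.03% of all rows. The 3 wild type values did not overlap the 3 Fezf2 KO values in 332 members (15.8%), against 14.5% of all rows. The 332 include the 13 and the 3 members that passed the level rule through a single genotype, where this was built in. The share of all rows includes them too. The median log2 difference over members was 0.027, and over all rows 0.002. Members had lower levels: the median of their mean values was 74.5, against 766 for all rows, and 39.8% of members stayed under a mean of 50, against 15.1% of all rows. In bulk cortex, fewer cells of a type and less RNA per cell cannot be told apart.

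**Figure D1:**
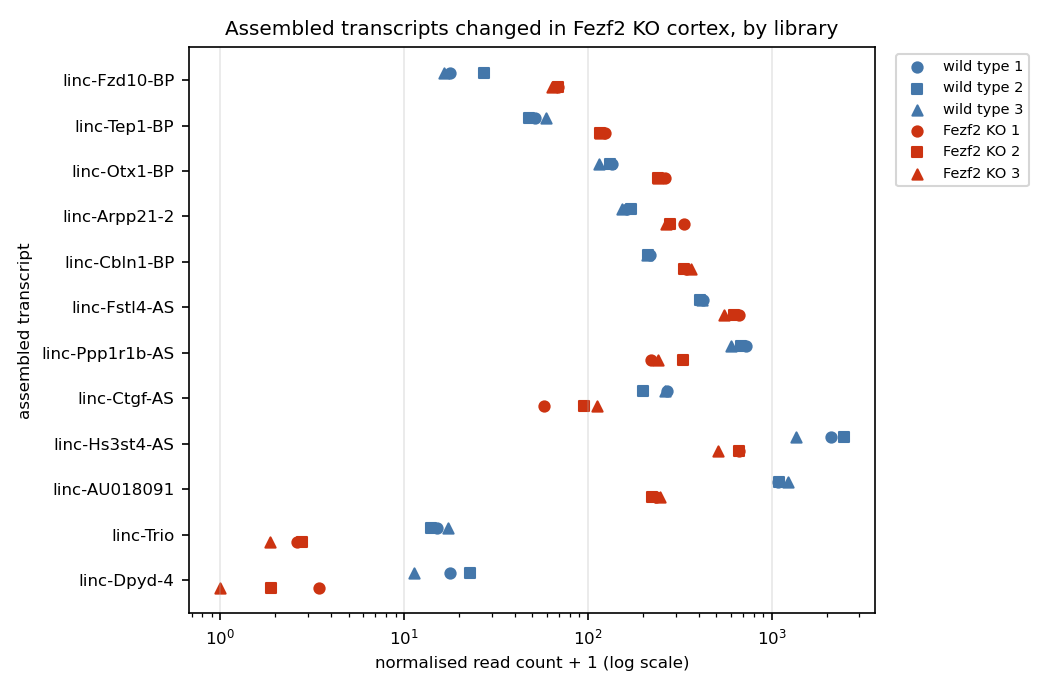
Normalised read count + 1 (log axis) of the 12 changed transcripts in each library. Blue symbols are the 3 wild type and red symbols the 3 Fezf2 KO libraries, with 1 symbol shape per replicate number. For each transcript the blue and red symbols do not overlap; the 6 upper rows are higher in Fezf2 KO and the 6 lower rows lower.

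The transcript with the smallest p was linc-AU018091 (XLOC_004327). Its wild type values were 1075, 1092 and 1226, and its Fezf2 KO values 233, 223 and 246. Every mutant library was thus below every wild type library, and the spread within each genotype was small. The means were 1131 ± 82.9 and 234 ± 11.9 (SD, n = 3 each), a 4.83-fold difference (log2 difference -2.27, SE 0.0893, adjusted p = 3.63e-05). AU018091 had no row of its own in the table, so this transcript could not be set beside the gene in its symbol. It kept its call without any single library and in litter m1 alone (adjusted p = 0.004).

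Among the other transcripts that fell were 3 named for genes of deep-layer and subplate neurons, the neurons nearest the white matter. Ppp1r1b encodes DARPP-32, an inhibitor of protein phosphatase 1 that neurons use downstream of dopamine. linc-Ppp1r1b-AS (XLOC_000833) was at 727, 683 and 603 in wild type and at 220.0, 328 and 240.2 in Fezf2 KO. The lowest wild type library was well above the highest mutant, Fezf2 KO 2. The log2 difference was -1.37 (SE 0.155, adjusted p = 0.00701). Ppp1r1b itself fell by nearly the same amount (log2 difference -1.32, SE 0.142, adjusted p = 0.00594). The transcript stood at 10.1 to 10.8% of the Ppp1r1b value in all 6 libraries, so the transcript and the gene kept 1 ratio library by library. Values are not scaled to length, so such a percentage compares read counts and not molecules. Ppp1r1b is also expressed in striatal neurons. The sum of the other 12 striatal markers was 16690 to 20077 in wild type and 12413 to 17248 in Fezf2 KO, and Fezf2 KO 2, the mutant with the highest linc-Ppp1r1b-AS, also had the highest striatal sum of the mutants. The part of striatal tissue in this result was not tested.

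linc-Hs3st4-AS (XLOC_004480) is named for a heparan sulfate 3-O-sulfotransferase, an enzyme that modifies sugar chains of cell-surface proteoglycans and marks layer 6 neurons. It was at 2109, 2476 and 1349 in wild type and at 664, 660.1 and 512 in Fezf2 KO. In each genotype the pup of litter m2 was the lowest, and the genotypes still did not overlap. The log2 difference was -1.66 (SE 0.211, adjusted p = 0.0125), and in litter m1 alone it was -1.79 (adjusted p = 0.00652). Hs3st4 had no row in the table.

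Ctgf encodes a secreted matrix protein that marks the subplate, a transient layer under the cortical plate. linc-Ctgf-AS (XLOC_000457) was at 269, 198 and 263 in wild type and at 56.8, 94.3 and 111 in Fezf2 KO. The lowest wild type value was above the highest mutant value. The log2 difference was -1.51 (SE 0.249, adjusted p = 0.0431), and that of Ctgf was -1.57 (SE 0.229, adjusted p = 0.0243). The transcript stood at 16.9 to 18.8% of Ctgf in all libraries. Its call was lost when any 1 library other than Fezf2 KO 1 was left out (adjusted p 0.0541 to 0.171).

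The remaining transcripts that fell were scarce. linc-Trio (XLOC_001790) had 49 reads in the wild type libraries together and 5 in the Fezf2 KO libraries. Its normalised values were 14.04, 13.1 and 16.3 against 1.62, 1.80 and 0.88. The ratio after normalisation was 10.1-fold, with a 95% interval from 4.04 to 32.4 that covers counting error only (log2 difference -2.69, SE 0.331, adjusted p = 0.0111). Trio, a guanine nucleotide exchange factor that acts in axon guidance, was at 15815 ± 223 and 15155 ± 493 (SD, n = 3; adjusted p = 0.755). linc-Dpyd-4 (XLOC_003120) had 55 against 4 reads, a ratio of 14.2-fold (5.23 to 53.8). Its values were 16.8, 21.8 and 10.3 against 2.44, 0.90 and 0 (log2 difference -3.15, SE 0.518, adjusted p = 0.0416). Dpyd, the enzyme that starts the breakdown of uracil and thymine, was at 82.3 ± 21.5 and 85.2 ± 18.3 (adjusted p = 0.984). Both transcripts passed the level rule through the wild type libraries alone, so a difference between genotypes was built into their membership. The fitted log2 differences at such levels depend on the value of 1 that was added before the logarithm. Of the 13 members that passed through wild type alone, these were the ones that changed, and none of the 3 that passed through Fezf2 KO alone did.

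Of the 6 transcripts that rose, 4 carry the suffix BP. linc-Otx1-BP (XLOC_000571) is named for a homeobox transcription factor of deep-layer neurons. It was at 135, 131 and 113 in wild type and at 261, 239 and 239 in Fezf2 KO. All mutant values were above all wild type values, by 1.95-fold in the mean (log2 difference 0.96, SE 0.119, adjusted p = 0.0111). Otx1 rose as well (log2 difference 0.58, SE 0.0908, adjusted p = 0.035).

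linc-Fzd10-BP (XLOC_003862), whose sequence under its known name is printed above, was at 16.8, 26.2 and 15.5 in wild type and at 68.2, 68.3 and 62.7 in Fezf2 KO. The means, 19.5 ± 5.83 and 66.4 ± 3.19 (SD, n = 3), differed 3.40-fold (log2 difference 1.75, SE 0.232, adjusted p = 0.0148). Fzd10, a Frizzled receptor for Wnt ligands, was at 132, 75.9 and 116 in wild type and at 244, 274 and 294 in Fezf2 KO (log2 difference 1.35, SE 0.204, adjusted p = 0.0286). Both genes of this head-to-head pair were thus higher in each mutant library than in any wild type library. Wild type 2 stood apart within its group: it had the highest value of the transcript and the lowest of Fzd10.

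linc-Cbln1-BP (XLOC_004587) was at 217, 210.3 and 209.7 in wild type and at 342, 331 and 364 in Fezf2 KO, 1.63-fold higher in the mean (log2 difference 0.70, SE 0.094, adjusted p = 0.0157). Cbln1, a secreted protein that bridges neurexins and delta glutamate receptors at synapses, rose from 4087 ± 160 to 5148 ± 164 (SD, n = 3; log2 difference 0.33, adjusted p = 0.0333). The row for Gm2694 gave a log2 difference of 0.71 (adjusted p = 0.0157), and it describes nearly the same reads as linc-Cbln1-BP, so it is not a separate observation.

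linc-Tep1-BP (XLOC_001472) was at 50.5, 47.1 and 58.4 in wild type and at 123, 115 and 116 in Fezf2 KO (log2 difference 1.17, SE 0.147, adjusted p = 0.012). Tep1, a protein component of the telomerase and vault ribonucleoproteins, was at 152 ± 16.3 and 167 ± 17.2 (adjusted p = 0.886). The transcript was at no more than 43.0% of the Tep1 value in wild type libraries and at 66.8 to 77.5% in Fezf2 KO libraries. linc-Arpp21-2 (XLOC_004997) was at 162, 170.2 and 152 against 332, 280.2 and 264 (log2 difference 0.85, SE 0.122, adjusted p = 0.0232). Arpp21, a cyclic AMP-regulated phosphoprotein abundant in cortical neurons, was at 6059 ± 84.5 and 5690 ± 358 (adjusted p = 0.72). linc-Fstl4-AS (XLOC_000752) was at 422, 404 and 415 against 664, 625 and 550.2 (log2 difference 0.56, SE 0.0934, adjusted p = 0.0431). Fstl4, a follistatin-like protein, was at 433, 455 and 427 against 700, 612 and 485, without overlap but short of the threshold (log2 difference 0.43, adjusted p = 0.299). The transcript stood at 88.7 to 113% of the Fstl4 value across the 6 libraries.

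The calls on these 12 differ in how many libraries they rest on. linc-AU018091 and linc-Ppp1r1b-AS passed whichever single library was left out. linc-Otx1-BP and linc-Hs3st4-AS lost the call, among single libraries, only without Fezf2 KO 3 (adjusted p 0.057 and 0.0592). linc-Trio lost it without wild type 2 or 3 (0.053 and 0.0658), and linc-Tep1-BP without Fezf2 KO 3 or wild type 2 (0.0644 and 0.0504). linc-Cbln1-BP lost it without Fezf2 KO 3 or any 1 wild type library (0.0534 to 0.0927). linc-Fzd10-BP lost it without any 1 library other than wild type 2 (0.0509 to 0.0714), and linc-Dpyd-4 and linc-Ctgf-AS without any 1 other than Fezf2 KO 1. linc-Arpp21-2 (0.0536 to 0.0959) and linc-Fstl4-AS (0.0541 to 0.167) lost it without any 1 of the 6. Without Fezf2 KO 1, the library with choroid plexus RNA, 10 members were called (of 108 rows in all), 9 of them among the 12; the 3 lost were linc-Arpp21-2, linc-Fstl4-AS and linc-Fzd10-BP (0.0542). Without wild type 2, the library with Xist, 5 were called (of 77 rows in all), all among the 12. The fewest, 3, were called without Fezf2 KO 3 (of 61 rows in all), so calls over all rows, 125 with every library, were fewer too.

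Of the 12 changed transcripts, 10 had a row for the gene in the symbol. In 5 of those pairs the gene changed too (Ppp1r1b, Ctgf, Otx1, Fzd10 and Cbln1), each in the direction of its transcript. The transcripts of the other 5 changed while Trio, Dpyd, Tep1, Arpp21 and Fstl4 did not pass the test. Gene and transcript are measured in the same libraries, and the strand of the reads is not stated: where they overlap, reads of one cannot be told from reads of the other.

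**Figure D2:**
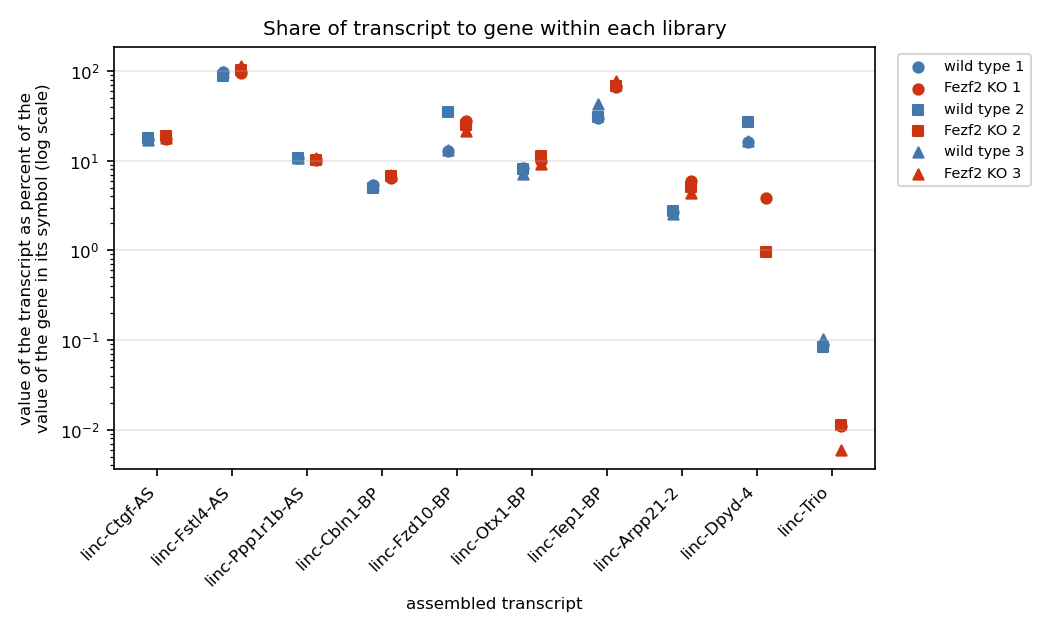
Value of each changed transcript as percent of the value of the gene in its symbol (log axis), within each library, for the 10 changed transcripts with a gene row; blue is wild type, red Fezf2 KO, and shapes are replicates. linc-Ctgf-AS and linc-Ppp1r1b-AS keep 1 level in all libraries, while linc-Otx1-BP, linc-Cbln1-BP, linc-Tep1-BP, linc-Arpp21-2, linc-Dpyd-4 and linc-Trio do not overlap between genotypes. None of these pairs without overlap passed the limma pair test given below (adjusted p 0.0696 to 0.432). linc-Trio and linc-Dpyd-4 passed the level rule through wild type alone, so their split was partly built in. linc-Dpyd-4 in Fezf2 KO 3 is at 0 and not drawn.

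Looked at from the gene, 29 of the genes in the symbols changed, 14 higher and 15 lower, and 33 members are named for them. Of these members 5 changed, the ones given above. The background of changed rows was 0.712%. The log2 difference had the same sign as that of the gene in 29 of 33 members. These were all 6 AS members, all 13 BP members, all 4 with no suffix and 6 of 10 with a number. Among them, linc-Adra1d-AS passed the level rule through Fezf2 KO alone and linc-Tle4-2 through wild type alone. The sign of their differences and the lack of overlap between genotypes were built into their membership. With each single library left out, the count was 6 of 6 for AS and 13 of 13 for BP each time. It was 3 to 4 of 4 for no suffix and 5 to 8 of 10 for numbered members. In all 6 AS members, linc-Adra1d-AS included, and in 11 of the 13 BP members the genotypes did not overlap (background 14.5%). Their genes did not overlap either, so leaving out 1 library could not change the sign in these members.

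**Figure D3:**
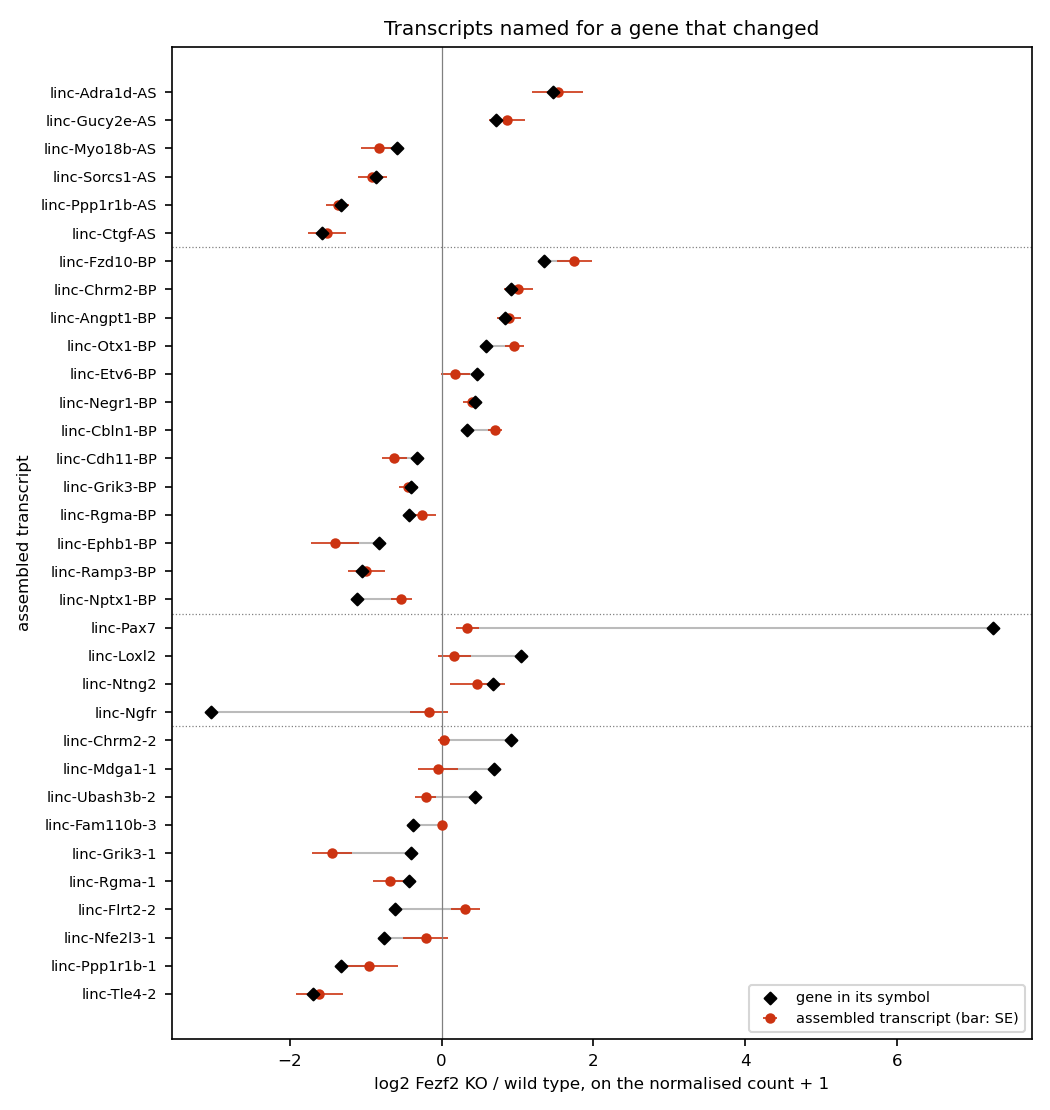
Log2 difference, Fezf2 KO against wild type, of the 33 transcripts named for a changed gene (red points, bars are standard errors) and of that gene (black diamonds). From top to bottom, dotted lines separate the suffix AS, the suffix BP, no suffix and numbered transcripts; AS and BP transcripts lie on the side of their gene, while linc-Pax7 and linc-Ngfr lie near 0, far from Pax7 and Ngfr.

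Several AS and BP members named for a changed gene did not pass, and had a log2 difference of the same sign as the gene. linc-Angpt1-BP, named for the Tie2 ligand angiopoietin 1, was at 63.6, 53.2 and 51.6 against 102, 114 and 98.02 (log2 difference 0.89, adjusted p = 0.0517). It stood at 29.2 to 32.3% of Angpt1, which rose (0.83, adjusted p = 0.0293). linc-Chrm2-BP, named for the M2 muscarinic acetylcholine receptor, was at 45.9, 41.9 and 30.9 against 80.4, 75.4 and 83.9 (log2 difference 1.01, adjusted p = 0.0673), and Chrm2 rose (0.92, adjusted p = 0.0157). linc-Sorcs1-AS, named for a sorting receptor of the Vps10 family, had means of 48.4 ± 6.60 and 25.1 ± 1.72 (adjusted p = 0.103) at 3.57 to 4.18% of Sorcs1, which fell (log2 difference -0.86, adjusted p = 0.00594). linc-Ephb1-BP, named for an ephrin-B receptor, had means of 44.6 ± 18.5 and 15.6 ± 3.01 (adjusted p = 0.125). linc-Ramp3-BP, named for a receptor activity-modifying protein, had 55.1 ± 8.91 and 27.7 ± 7.51 (adjusted p = 0.156). In each of these members the 3 values of one genotype lay apart from the 3 of the other, as in 14.5% of all rows. In linc-Rgma-BP and linc-Etv6-BP, also named for changed genes, the genotypes overlapped.

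Some changed genes had more than 1 transcript named for them; differences between those transcripts were not tested. linc-Chrm2-2 was at 1585 ± 150 in wild type and 1613 ± 89.4 in Fezf2 KO (SD, n = 3; log2 difference 0.03, adjusted p = 0.971). linc-Grik3-BP (log2 difference -0.44, adjusted p = 0.27) was close to Grik3, a kainate receptor subunit that fell (-0.40, adjusted p = 0.00984), while linc-Grik3-1 had a log2 difference of -1.44 (30.7 ± 5.72 against 10.7 ± 2.46, adjusted p = 0.0601). For Ppp1r1b the second transcript, linc-Ppp1r1b-1, was at 62.4 ± 7.32 against 34.9 ± 16.5 (adjusted p = 0.488). For a gene with 1 such transcript, linc-Fam110b-3 was at 3715 ± 137 and 3731 ± 170 (adjusted p = 0.993) although Fam110b fell (log2 difference -0.38, adjusted p = 0.00594).

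A direct test asked whether transcript and gene moved unequally: limma on the difference log2(transcript + 1) - log2(gene + 1) in each library, over the 1844 pairs in which both rows passed the level rule. It called 1 pair (0.0542%), and 148 at an unadjusted p under 0.05. That pair was linc-Pax7 and Pax7, and the row for Pax7 passed the level rule through Fezf2 KO alone, so a difference between genotypes was built into its entry. Pax7, a paired-box transcription factor of dorsal neural progenitors and muscle stem cells, was at 1.87, 1.75 and 0 in wild type (4 reads in all) and at 293, 284 and 339 in Fezf2 KO. linc-Pax7 (XLOC_003569) was at 75.8, 60.2 and 63.6 in wild type and at 86.1, 80.8 and 85.7 in Fezf2 KO (log2 difference 0.34, SE 0.152, adjusted p = 0.564). The transcript thus had reads in every wild type library while Pax7 had almost none, and the lowest of its mutant values lay just above the highest wild type value. The difference between the 2 log2 differences was -6.92 (SE 0.388, adjusted p = 0.00181), a size that depends on the added 1. The call held without each single library (adjusted p 5.15e-05 to 0.0349).

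In a second pair, singled out after its values were seen, the gene fell and the transcript did not pass the test. Ngfr, the p75 neurotrophin receptor that marks subplate neurons, was at 1205, 1491 and 1072 in wild type and at 153, 168 and 133 in Fezf2 KO (log2 difference -3.04, adjusted p = 6.02e-05). linc-Ngfr was at 79.5, 66.3 and 131 against 90.1, 73.6 and 73.3, with overlapping genotypes (log2 difference -0.17, adjusted p = 0.929). The pair test gave a log2 difference of 2.87 but missed the threshold (SE 0.358, adjusted p = 0.0858); without wild type 3, the library with the highest linc-Ngfr, it passed (adjusted p = 0.0125). The pairs of linc-Trio (adjusted p = 0.0696), linc-Arpp21-2 (0.111) and linc-Tep1-BP (0.139) also missed it. The other changed transcripts, whose pairs gave adjusted p of 0.186 to 0.916, were not shown to move differently from their genes, nor were they shown to move alike.

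Across all pairs, the log2 differences of transcript and gene were related in the members with a suffix and hardly in the others. As a description, Pearson's r was 0.69 over 693 AS pairs (Spearman's rho 0.60), 0.59 over 451 BP pairs (rho 0.37), 0.05 over 400 pairs with no suffix (rho 0.01) and 0.18 over 300 numbered pairs (rho 0.10). Among members with a mean of at least 50, r was 0.76 for AS, 0.59 for BP, 0.11 for no suffix and 0.18 for numbered. With each library left out in turn, r stayed within 0.59 to 0.70 for AS and 0.53 to 0.62 for BP, and within 0.03 to 0.08 and 0.10 to 0.22 for the other classes. These are correlations across genes, which are not independent replicates, and both members of a pair share the same 6 libraries, so any RNA that entered 1 library moves both. Some placed AS and BP members overlap their gene, and with the strand of the reads not stated such pairs may share reads. The difference between classes, and the part of shared reads in it, was not tested.

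**Figure D4:**
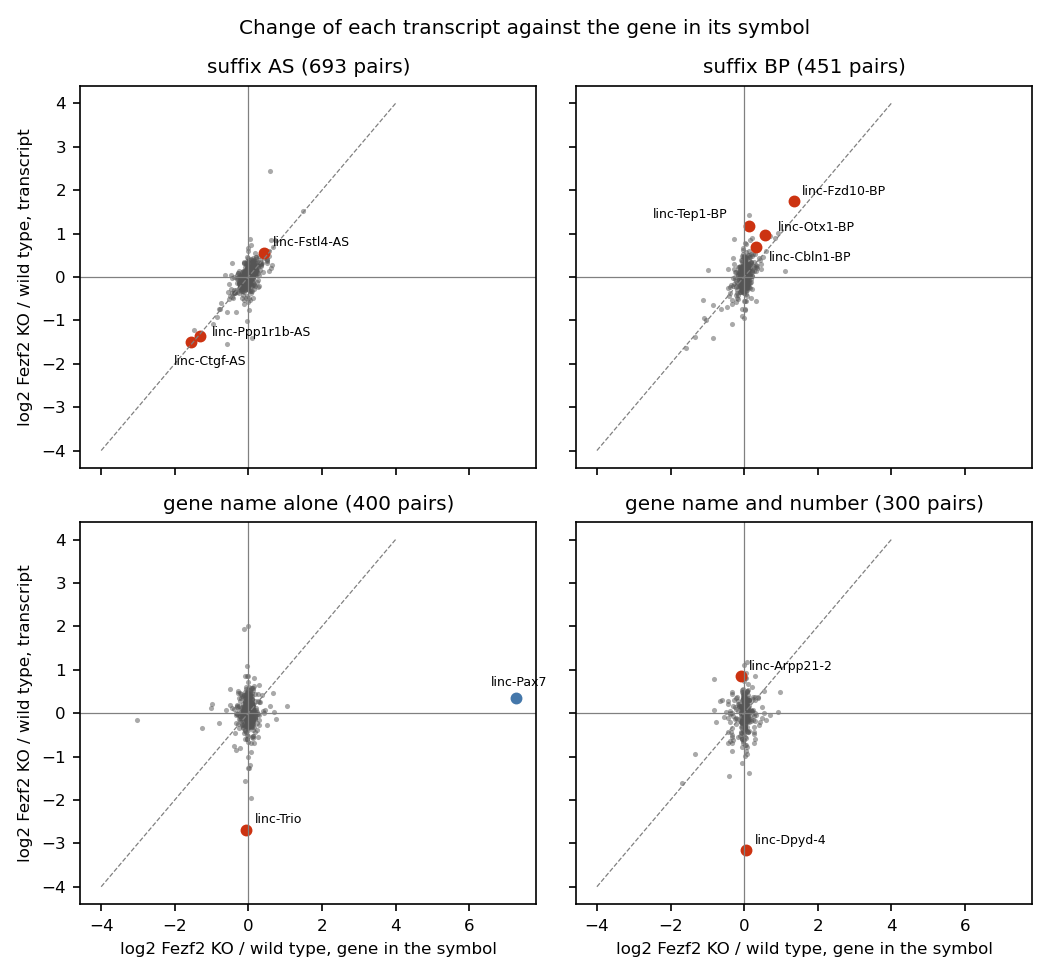
Log2 difference between Fezf2 KO and wild type of each transcript (vertical axis) against that of the gene in its symbol (horizontal axis), in 4 panels by kind of name; each grey point is 1 pair, red points are changed transcripts, the blue point is linc-Pax7 and the dashed line marks equal differences. AS and BP points spread along the dashed line, while points with no suffix or a number spread up and down around 0 on the horizontal axis.

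By kind of name, the changed members were 1 higher and 3 lower of 749 AS (0.534%), 4 higher of 466 BP (0.858%), 2 lower of 493 with no suffix (0.406%) and 1 higher and 1 lower of 364 numbered members (0.549%), against 0.712% of all rows. The 24 members with another name had none. Levels differed between these kinds: the median of the mean values was 151 for AS, 74.5 for BP, 47.9 for no suffix and 42.4 for numbered members. This order too is of read counts not scaled to length. By level, the share of members changed was 0.524% under a mean of 20 (known genes 0.137%), 0.221% from 20 to 50 (0.742%), 0.473% from 50 to 200 (0.53%), 1.17% from 200 to 1000 (0.697%) and 0.5% from 1000 upward (0.856%), in no 1 direction. The 2 members called in the lowest range are linc-Trio and linc-Dpyd-4, which passed the level rule through wild type alone, so nothing is read from that share.

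Members were also grouped by lists of genes for neuron classes. For every list, the shares to set beside its counts are those over all rows, 0.404% higher and 0.308% lower. Of 14 tested rows for genes of corticothalamic neurons of layer 6, 6 fell and none rose. Named for 5 of those genes were 7 members, of which linc-Ppp1r1b-AS and linc-Hs3st4-AS fell. The median log2 difference of the 7 was -1.37, against 0.027 for all members. In 6 of the 7 the genotypes did not overlap (background 14.5%). Ppp1r1b and Grik3 each gave more than 1 of the 7, so these are not separate observations. linc-Tle4-2, named for a Groucho corepressor, was at 15.9, 14.8 and 19.8 against 3.25, 6.29 and 5.30 (adjusted p = 0.0774). It passed the level rule through wild type alone, so its part in that median and in the count of 6 was built in. Tle4 fell (log2 difference -1.69, adjusted p = 3.63e-05). linc-Nfia-AS had a log2 difference of 0.13 (adjusted p = 0.953). Of 15 subplate genes 7 fell, and their 2 members were linc-Ctgf-AS, which fell, and linc-Ngfr. Of 18 rows for layer 5 subcerebral neurons 1 rose, Otx1, and 1 fell, Fezf2. Their 3 members were linc-Otx1-BP, which rose, linc-Crim1-BP (log2 difference -0.41, adjusted p = 0.797) and linc-Pex5l-AS. The last, named for a subunit of HCN channels, was at 325, 341 and 354 against 112, 222 and 166 (log2 difference -1.08, adjusted p = 0.0934), at 30.9 to 35.5% of Pex5l in every library.

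For the neurons that project across the corpus callosum and for upper layers, 1 of 21 rows rose and none fell. None of 13 members changed (background 0.712%), and 11 of them had a negative log2 difference. The 13 are named for 8 genes, so their signs are not separate observations. Their median log2 difference was -0.14, against 0.027 for all members, and in 2 of them the genotypes did not overlap (background 14.5%). linc-Dok5 was at 38.4, 41.0 and 50.7 against 13.0, 9.88 and 20.3 (log2 difference -1.57, adjusted p = 0.0604), without overlap, while Dok5, an adaptor of receptor tyrosine kinases, was at 7031 ± 808 and 6534 ± 697 (adjusted p = 0.873). Of 21 rows for interneurons 2 rose, and none of 5 members changed. linc-Dlx6-AS was at 70.2, 56.7 and 63.6 against 33.3, 67.4 and 52.1 (adjusted p = 0.78). linc-Lhx8-BP, named for a homeobox factor of the ventral forebrain, was at 16.8, 14.8 and 6.87 against 0.81, 13.5 and 1.77 (adjusted p = 0.574); the mutants were highest in Fezf2 KO 2, as the striatal markers were. Of 19 rows for radial glia and progenitors none changed, nor did any of 5 members: linc-Sox21-AS was at 450.0 ± 28.2 and 471 ± 40.2 (adjusted p = 0.931) and linc-Emx2-BP, equal to Emx2os, at 51.6 ± 13.8 and 72.0 ± 11.1 (adjusted p = 0.596).

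Among 22 tested rows for long noncoding genes known from other work, 1 rose, Gm2694, and 6 members repeat such rows under another name. linc-Kcnk9 equals Peg13, an imprinted transcript expressed from the paternal copy, at 16890 ± 679 and 17417 ± 415 (SD, n = 3; adjusted p = 0.878). linc-Hscb-3 equals Miat, at 3891 ± 629 and 3510 ± 966 (adjusted p = 0.907). linc-Dio3-3 equals Rian, of the imprinted Dlk1-Dio3 region, at 5394 ± 723 and 3970 ± 826 (adjusted p = 0.39). Rian, Miat and Meg3 were all lowest in Fezf2 KO 1, the library with choroid plexus RNA; its part in these values was not tested. linc-Cenpl, equal to Gas5, and linc-Dnajc8, equal to Snhg12, both hosts of small nucleolar RNAs, gave log2 differences of 0.04 and -0.12 (adjusted p = 0.966 and 0.907).

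The 6 members with the highest mean values changed little between genotypes. linc-Pou3f3-AS was the highest, at 28616 ± 3195 in wild type and 28557 ± 3259 in Fezf2 KO (SD, n = 3; log2 difference 0.00, adjusted p = 0.998). It stood at 146 to 167% of the value of Pou3f3, a POU-domain transcription factor of cortical neurons. linc-Dab1-2 was at 12171 ± 180 and 11938 ± 194 (adjusted p = 0.92). Not all of these rows carry their label: uc009vfc.1 (21230 ± 1572 and 22013 ± 2378) had the same values as Cytb, a mitochondrial coding gene, and uc009vey.1 and uc009vew.1 had wild type means of 15248 and 13902. linc-Mtpn-2 had the values of Ptn, which encodes a secreted growth factor. Of the 321 members that repeat a known row, RefSeq lists 54 as lncRNA, 19 as transcribed pseudogenes and 1 as protein coding. A further 241 had no RefSeq name. The 1 listed as protein coding is Ptn, so Cytb is not in that count. Of the 12 members called as changed, only 1, linc-Fzd10-BP, repeats a known row, and that gene is noncoding. The others could not be checked for coding genes in this way.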

How the data were processed

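The deposited table holds a signal per gene: read counts scaled by the authors with DESeq-type size factors, 1 for each library. Bowtie, STAR, DESeq and mm9 are named, without versions, in the submitters' processing notes; the counting rule, the strand and the source of the assembled models are not given in the sources used here. Values are not scaled to length. All values (100%) were whole multiples of 1 read within 0.006, worth 0.812 to 0.936 units. The limit for a value of 0 is 3 reads (2.44 to 2.81 units) and covers counting error only. No library was a resampling of another (chi-square per degree of freedom 8.39 to 31.1).

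All 17557 rows with at least 10 in 3 libraries were fitted with limma 3.58.1 (trend, R 4.3.3) on log2(value + 1), genotype only, with Benjamini-Hochberg adjustment over all rows. The pair test was adjusted over 1844 pairs. A gene was taken from the symbol by exact match (1943 members; the row with the highest mean where several matched). edgeR 4.0.16, DESeq2 1.42.0 and limma-voom on recovered reads, other filters, litter and left-out libraries were alternatives. The test was checked on simulated data. Members, lists and tests were chosen with earlier results of these data known. Named were all changed members, members of changed or listed genes, members nearest the threshold, the 6 highest and members equal to known rows where the text needs them. Litter is from the labels; over 1261 members, same-litter pairs of libraries correlated at -0.276 to 0.434 in their deviations and other pairs at -0.376 to 0.116. The reference was GRCm38, so no coordinates of table rows are given. Some members covered by the naming rule are not reported here.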

Additional observations from a re-analysis of the deposited data

How the results depend on the processing

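In place of 12 changed transcripts, DESeq2 on the recovered reads called 29 (17 higher, 12 lower), including all 12, with 403 called over all rows in place of 125. Litter m1 alone, with fewer libraries, called 2 (linc-AU018091 and linc-Hs3st4-AS), and 29 over all rows. Leaving out each library gave 3 to 10, the lowest values being 3 without Fezf2 KO 3, 5 without wild type 2 and 6 without wild type 3. With litter as a replicate block 13 were called, the 12 and linc-Dok5 (adjusted p = 0.0346). The other settings gave 10 to 13; linc-Dpyd-4 was lost with a pseudocount of 0.5, a minimum of 20 and edgeR, linc-Trio at the minimum of 20 and linc-Fstl4-AS in voom. The pair test called 1 pair in the main fit, 2 with edgeR (linc-Trio, adjusted p = 0.037, a fit that ignores the counting error of the gene), 2 in litter m1 alone (linc-Chrm2-2, 0.0433), 1 with the litter block and 1 to 4 without single libraries, 4 without wild type 3. The 168 refits of the 12 used the same 6 libraries, in which none of the 12 overlapped between genotypes. A reversed direction was therefore not to be looked for, and none was seen. The call was kept in 117 refits and lost in 51, and the cause was not tested. Scaling moved the median of all rows by less than 0.1. DESeq2 also called linc-Angpt1-BP, linc-Chrm2-BP, linc-Pex5l-AS, linc-Ephb1-BP and linc-Dok5. Scarce members were measured less precisely, for causes not separated here: the median SE was 0.317 on the log2 scale under a mean of 20 and 0.0704 from 1000 upward.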
